A study of Mus musculus with 32 samples.

Results

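CCL206 fibroblasts from lung organoid cultures treated with osteoglycin (OGN) were compared with CCL206 fibroblasts from cultures treated with soluble factors (SFs). The comparison holds the 8 fibroblast libraries of these treatments, 4 with OGN and 4 with SFs, out of 32 libraries in the series. The libraries were paired by the number of the mouse that gave the epithelial cells of the culture, and all genes of the table entered the analysis. No vehicle library entered the test, and vehicle values are given only as the background level.

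CCL206 is a mouse lung fibroblast line. Its proliferation was inactivated with mitomycin C, and the cells were grown in Matrigel at a ratio of 1 to 1 with CD45-/CD31-/Epcam+ cells of 1 mouse. The cultures of 4 mice received recombinant human OGN at 10 µg/mL, SFs at 30 µg/mL, extracellular vesicles or vehicle for 72 h. SFs are the protein fractions that size-exclusion chromatography separated from the vesicles in medium conditioned by MRC5 cells, a human lung fibroblast line. The treatments thus differ in agent and in dose, and no dose-matched pair exists in the series. By proteomics the study found OGN in the SFs as well as in the vesicles, so SFs are not a treatment free of OGN. After treatment the cultures were dissociated, and magnetic beads against CD326 (Epcam) separated an Epcam fraction from the fibroblast fraction analyzed here. All fibroblasts belong to 1 line, so the replicates differ in the mouse of the epithelial cells and in the culture. The p values of single genes refer to the spread between such cultures, estimated in part from other genes.

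The deposited table gives the reads counted per gene for 11818 genes, each with at least 1 count in every one of the 32 libraries, so genes silent in either fraction are absent from all values below. The libraries with SFs held 5247496 to 5909843 counts and those with OGN 4560414 to 16103497, while the vehicle libraries of the fibroblast fraction held 7148561 to 10496280. Levels are given as CPM, the counts scaled to a common library size, after TMM scaling over the fibroblast libraries, in the order of mouse 1 to mouse 4. Fold changes are log2 values of OGN minus SFs with the standard errors of the fit (n = 4 pairs). The fit had 3 residual and 17.1 prior degrees of freedom, so each gene's spread was estimated mostly from other genes. These errors are therefore not the spread of that gene's 4 pairs. A gene was called higher or lower at an adjusted p under 0.05 in edgeR's quasi-likelihood test, whose terms were mouse and treatment. In RNA from whole fractions, fewer cells of a type and less RNA per cell cannot be told apart.

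OGN, also called mimecan, belongs to the small leucine-rich proteoglycans, a family of matrix proteins that includes decorin, biglycan and lumican. Fibroblasts next to the alveolar epithelium supply it with growth factors such as FGF7, FGF10 and HGF, build and cut the matrix, and take part in innate defence. When such cells sense microbial products or interleukin-1, they release acute-phase proteins and chemokines through the transcription factor NF-kB.

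The fibroblast fraction carried its label. The summed level of 16 fibroblast markers was 17700 to 19200 CPM with OGN and 18800 to 20200 CPM with SFs, against 3340 to 4030 CPM in the Epcam fraction of the OGN-treated cultures. It also carried epithelial RNA. The summed level of 35 epithelial markers was 5400, 3910, 6750 and 3440 CPM with OGN, against 4840, 3290, 3850 and 2400 CPM with SFs. The sum was higher with OGN in each mouse, by ratios of 1.12, 1.19, 1.76 and 1.43, but the groups overlapped (exact permutation test, two-sided, p = 0.171, n = 4 against 4, smallest possible p 0.0286). This test, also used for the marker sums below, leaves out the pairing by mouse. Its p therefore does not measure the rise within each mouse. With vehicle the sum was between 2810 and 7150 CPM, and in the Epcam fraction of the OGN-treated cultures between 27300 and 32900 CPM. Set against the Epcam fraction of the same culture, the epithelial sum of the fibroblast fraction was 10.5 to 24.7% with OGN and 7.77 to 16.1% with SFs. Of 34 epithelial markers tested, 23 were higher with OGN and 0 were lower (median log2 fold change 0.72). Of all genes tested, 6.12% were higher.

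Few markers of other cells are in the table. Of 20 leukocyte markers, 3 are in the table, and their summed level was 127 to 277 CPM with OGN and 75.7 to 172 CPM with SFs (exact permutation test, two-sided, p = 0.143, n = 4 against 4). It was higher with OGN in all 4 mice, and 2 of the 3 genes were called higher. In the Epcam fraction of the OGN-treated cultures this sum was 399 to 540 CPM. The 3 mesothelial markers summed to 137 to 245 CPM with OGN and 86.2 to 149 CPM with SFs (exact permutation test, two-sided, p = 0.0571, n = 4 against 4), higher with OGN in all 4 mice, with 2 of 3 called higher. All 3 had a level more than 4-fold higher in the Epcam fraction, where they summed to 2060 to 3140 CPM with OGN. Krt19, a member of this list, is also in the epithelial list. The 5 smooth muscle and pericyte markers summed to 256 to 291 CPM with OGN and 293 to 324 CPM with SFs, which did not overlap (exact permutation test, two-sided, p = 0.0286, n = 4 against 4), whereas with the TMM-scaled total the p was 0.0571 in the same exact test. The part of these differences in the results below was not tested beyond the values given beside them.

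The 4 promoters below belong to the genes that led the difference and have an entry in the RefSeq table. They were chosen by the size of the log2 fold change among the 12 genes with the smallest p in each direction. All 4 genes code for secreted defence proteins and were higher in all 4 mice. Each is the 250 bases before the annotated start on GRCm38.p6, 5′ to 3′ on the strand of the gene. Capitals mark matches to GGGA followed by any 4 letters and CC, a pattern common to binding sites of NF-kB, searched on both strands.
Saa3, chr7:46715677-46715926, minus strand: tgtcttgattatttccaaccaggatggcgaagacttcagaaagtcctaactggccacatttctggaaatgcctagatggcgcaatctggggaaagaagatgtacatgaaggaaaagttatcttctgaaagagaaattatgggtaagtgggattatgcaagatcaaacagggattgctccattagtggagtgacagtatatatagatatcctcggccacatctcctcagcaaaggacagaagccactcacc
Lcn2, chr2:32387740-32387989, minus strand: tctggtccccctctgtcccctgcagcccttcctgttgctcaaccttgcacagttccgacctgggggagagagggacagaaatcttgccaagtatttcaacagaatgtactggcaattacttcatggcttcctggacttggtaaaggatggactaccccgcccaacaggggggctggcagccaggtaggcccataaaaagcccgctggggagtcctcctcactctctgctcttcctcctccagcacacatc
Slpi, chr2:164356508-164356757, minus strand: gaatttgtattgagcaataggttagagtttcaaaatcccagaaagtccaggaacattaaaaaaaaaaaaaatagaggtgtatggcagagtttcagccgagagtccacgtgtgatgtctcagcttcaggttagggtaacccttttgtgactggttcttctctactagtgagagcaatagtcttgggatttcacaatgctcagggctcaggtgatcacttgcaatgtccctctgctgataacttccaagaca
Chil1, chr1:134181906-134182155, plus strand: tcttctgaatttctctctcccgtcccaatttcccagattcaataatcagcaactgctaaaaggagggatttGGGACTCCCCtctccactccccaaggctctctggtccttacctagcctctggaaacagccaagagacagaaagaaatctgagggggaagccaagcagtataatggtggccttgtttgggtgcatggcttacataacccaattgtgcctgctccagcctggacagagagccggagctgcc
The listed start of Saa3 lies inside its RefSeq gene, which spans chr7:46711998-46719615. The Chil1 promoter holds 1 match, at 179 to 170 bases before the start on the strand of the gene, and the other promoters hold none. Of 32851 promoter windows of this length in the table, 5793 (17.6%) hold at least 1 match. A window without a match says only that these letters are not in these 250 bases. Hp and Cxcl5, which also led the difference, have no entry.

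OGN-treated and SFs-treated fibroblasts differed in 1292 of 11648 genes tested (11.1%). With OGN, 713 genes (6.12%) were higher and 579 (4.97%) were lower. Most of these differences were below 2-fold, with 136 genes more than 2-fold higher, 36 more than 2-fold lower and a median absolute log2 fold change of 0.45. The direction was the same in all 4 mice for 1220 of the 1292 genes. The OGN and SFs libraries did not overlap in 896 of them (69.3%), against 12.8% of all genes tested, in which all OGN libraries were above all SFs libraries in 6.18% and below them in 6.61%. Dropping the mouse term left 775 genes. The number was 802 without mouse 2, 644 without mouse 4 and 325 when the 16 fibroblast libraries of all treatments shared 1 estimate of the spread. With the epithelial marker sum as a covariate, an alternative chosen after the values were seen, 583 genes were called, 374 of them among the 1292.

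The vehicle level was nearer to SFs than to OGN in 596 of the 713 higher genes (83.6%) and in 462 of the 579 lower genes (79.8%), against 62.8% of all genes tested. Genes with a level more than 4-fold higher in the Epcam fraction made up 167 of the higher genes (23.4%) and 17 of the lower genes (2.94%), against 6.38% of all genes tested. Without such genes 546 remained among the higher and 562 among the lower.

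Acute-phase and innate defence proteins were the list with the highest median. The lists here and below were chosen with earlier results of these data known, so their ranks and shares only describe them. Of 16 members tested, 10 were higher with OGN and 0 were lower (62.5% called, against 11.1% of all genes tested). The median log2 fold change was 1.27, against 0 for all genes tested. Saa3 encodes serum amyloid A3, an acute-phase apolipoprotein made outside the liver. Its level was 321, 252, 240 and 267 CPM with OGN, against 14.6, 12.1, 18.4 and 15.7 CPM with SFs. The vehicle libraries held at most 1.18 CPM, so that SFs-treated fibroblasts lay between vehicle and OGN. The log2 fold change was 4.16 ± 0.1 (edgeR, adjusted p = 9.37e-17). Lcn2 encodes lipocalin 2, which binds bacterial siderophores and so withholds iron. It reached 420, 378, 385 and 330 CPM with OGN and 65.9, 41.7, 65.2 and 43.3 CPM with SFs, a log2 fold change of 2.83 ± 0.09 (edgeR, adjusted p = 3.47e-15). All 4 vehicle libraries were lower still, at 8.12 to 13.8 CPM. Neither gene overlapped between the treatments.

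Slpi, an inhibitor of leukocyte serine proteases, stood at 233, 216, 261 and 248 CPM with OGN and at 71, 67.7, 81.6 and 71.4 CPM with SFs (log2 fold change 1.73 ± 0.07, edgeR adjusted p = 2.95e-13). Hp encodes haptoglobin, which binds free haemoglobin. It stood at 355, 322, 400 and 303 CPM with OGN and at 106, 80.7, 95.5 and 57.8 CPM with SFs (log2 fold change 2.05 ± 0.08, edgeR adjusted p = 3.89e-13). Here the SFs libraries were close to vehicle, at 43.1 to 101 CPM. Chil1, a chitinase-like protein that marks inflamed tissue, stood at 389, 283, 425 and 252 CPM with OGN and at 145, 99.9, 125 and 71.1 CPM with SFs (log2 fold change 1.64 ± 0.07, edgeR adjusted p = 2.63e-12). In all 3 genes every OGN library was above every SFs library. Il33, an alarmin of the interleukin-1 family, was 211 to 238 CPM in mice 1, 2 and 4 with OGN and 187 CPM in mouse 3, against 92.2 to 118 CPM with SFs (log2 fold change 1.08 ± 0.07, edgeR adjusted p = 1.19e-09).

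Further members of the list were higher. Steap4, a metalloreductase, was 29.3 to 35.5 CPM with OGN and 9.8 to 14 CPM with SFs, and Cp, the ferroxidase ceruloplasmin, was 2950 to 3270 CPM with OGN and 1660 to 2060 CPM with SFs. Both groups were apart in each gene. Ltf, which encodes lactoferrin, held 9.19, 17.6, 51.9 and 15.1 CPM with OGN and 5.32, 4.9, 8.37 and 0.842 CPM with SFs (log2 fold change 2.22 ± 0.27, edgeR adjusted p = 9.84e-06). With vehicle Ltf held 9.18, 5.23, 12.9 and 6 CPM, which overlapped both treatments. Its level in the Epcam fraction was 2020 CPM with OGN, and with the epithelial covariate the call was lost (edgeR, adjusted p = 0.221). The 6 members that did not pass had log2 fold changes of 0.07 to 0.23, among them the metallothioneins Mt1 and Mt2 and the protease inhibitor Serpina3n.

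**Figure D1:**
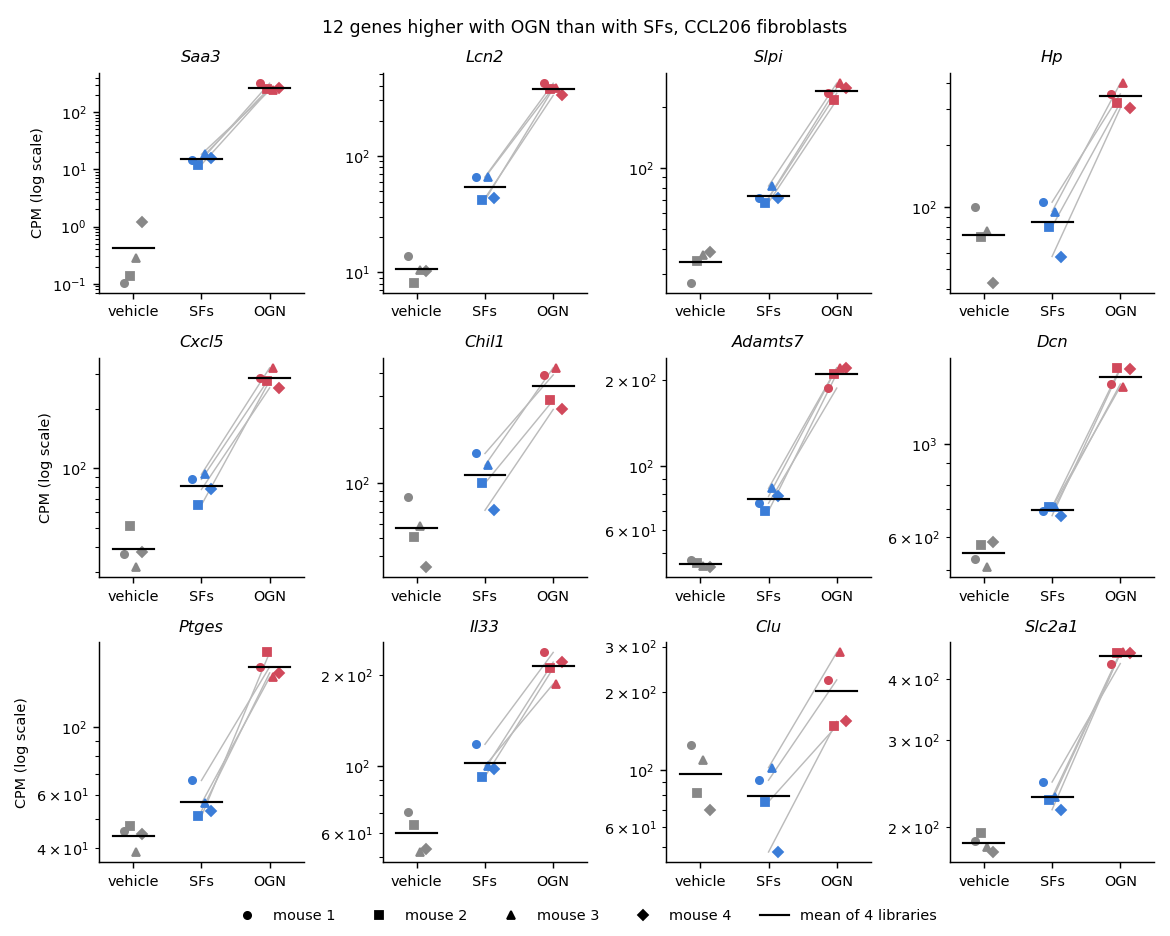
Level of the 12 genes with the smallest p among those higher with OGN in all 4 mice, in CPM on a log scale, for vehicle, SFs and OGN in the fibroblast fraction. Symbols are mice, grey lines join SFs and OGN of 1 mouse and black bars are means of 4 libraries. In each panel the 4 OGN libraries lie above the 4 SFs libraries. For Saa3 the SFs libraries, at 12.1 to 18.4 CPM, lie between vehicle and OGN.

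The levels of these genes were set beside those of the Epcam fraction. Relative to the Epcam fraction of the same culture, the fibroblast fraction held 210 to 280% of the Saa3 level, 144 to 212% of Slpi and 79.5 to 94.1% of Lcn2 with OGN, and 10.5 to 24.7% of the epithelial marker sum. Chil1 was at 30.6 to 53.3% and Cxcl5 at 39.7 to 59.7%. Hp was at 16.7 to 33.4% with OGN and 5.47 to 11.1% with SFs. Clu was at 3.19 to 8.13% with OGN. With the epithelial marker sum as a covariate the log2 fold changes were 4.66 for Saa3, 3 for Lcn2, 1.83 for Hp, 1.38 for Chil1 and 1.09 for Clu, and all 5 passed the threshold in edgeR.

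**Figure D2:**
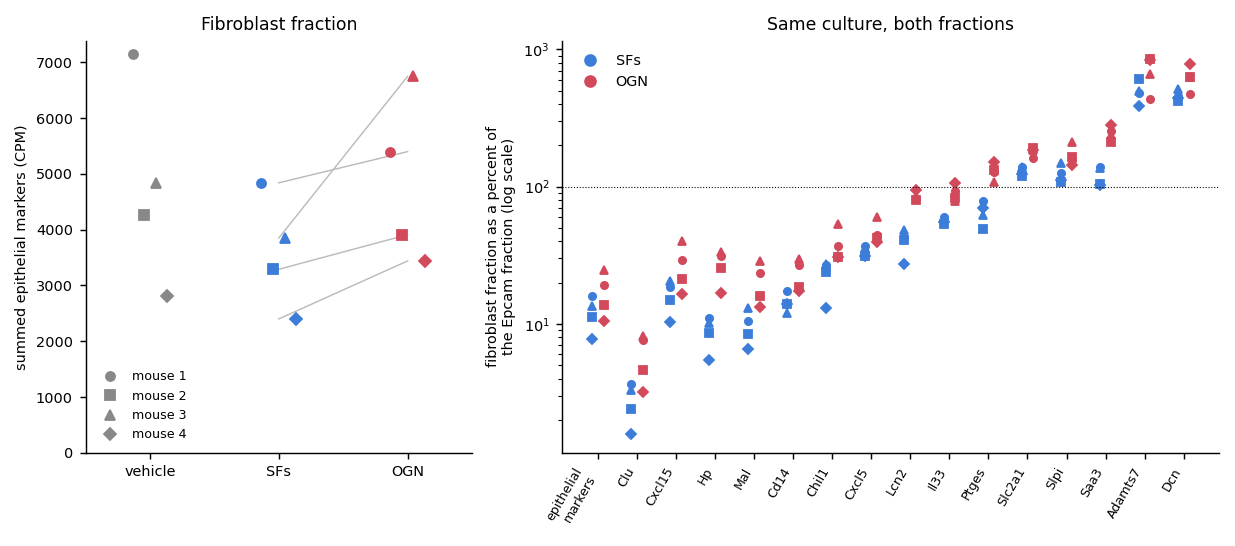
Left, summed level of the epithelial markers in the fibroblast fraction, in CPM of the library total, for vehicle, SFs and OGN. Right, level in the fibroblast fraction as a percent of the Epcam fraction of the same culture, on a log scale, for the marker sum and 15 genes with SFs (blue) and OGN (red). Symbols are mice and the dotted line marks equal levels in both fractions. The marker sum was 10.5 to 24.7% with OGN, whereas Saa3 was 210 to 280%.

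Chemokines moved in both directions. Of 15 chemokine ligands and decoy receptors tested, 6 were higher and 3 were lower with OGN (60%, against 11.1% of all genes). Their median log2 fold change was 0.57. Cxcl5, a ligand of the neutrophil receptor CXCR2, held 287, 277, 322 and 255 CPM with OGN and 87.8, 65.2, 93.2 and 78.1 CPM with SFs (log2 fold change 1.83 ± 0.07, edgeR adjusted p = 3.89e-13). Cxcl3, another ligand of that receptor, held 31.8, 20.4, 31.9 and 19.6 CPM with OGN and 6.32, 2.83, 7.48 and 4.21 CPM with SFs (log2 fold change 2.33 ± 0.18, edgeR adjusted p = 1.27e-08). Ccl20, which attracts cells that bear CCR6, held 10.5 to 19.7 CPM with OGN and 2.53 to 3.56 CPM with SFs. None of these overlapped between the treatments. Cxcl1 held 268, 269, 73.4 and 113 CPM with OGN and 137, 135, 69.7 and 82.5 CPM with SFs, so that the groups overlapped while every mouse was higher with OGN (log2 fold change 0.65 ± 0.11, edgeR adjusted p = 0.000254).

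The lower chemokines included Cxcl12, the ligand of CXCR4 that retains progenitor cells. It held 300, 327, 358 and 404 CPM with OGN and 468, 544, 629 and 704 CPM with SFs (log2 fold change -0.74 ± 0.06, edgeR adjusted p = 2.12e-08). The vehicle libraries were higher again, at 556 to 858 CPM. Cx3cl1, a membrane-bound ligand of monocytes, held 211, 189, 116 and 150 CPM with OGN and 340, 337, 251 and 220 CPM with SFs (log2 fold change -0.79 ± 0.08, edgeR adjusted p = 2.93e-07). Ccl9 held 5.42 to 8.07 CPM with OGN and 11 to 24.1 CPM with SFs. The monocyte chemokine Ccl2 did not pass, with a log2 fold change of 0.07 ± 0.08 (edgeR, adjusted p = 0.679). The list's median depended on 4 members with a level more than 4-fold higher in the Epcam fraction. Without them it was 0.01, and 3 of the 6 higher members were among them.

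Genes of receptor signalling and of the NF-kB pathway were examined next. Of 23 genes of Toll-like receptor and interleukin-1 receptor signalling, 3 were higher and 0 were lower (13%, against 11.1% of all genes). They were the receptors or co-receptors Cd14, Tlr2 and Il1rap. Cd14, which hands lipopolysaccharide to TLR4, held 105, 84.7, 122 and 91.3 CPM with OGN and 46.2, 44.7, 39.9 and 42.6 CPM with SFs (log2 fold change 1.21 ± 0.1, edgeR adjusted p = 2.97e-08). Its level in the fibroblast fraction was 17.4 to 29.9% of that in the Epcam fraction with OGN. Tlr2 held 6.52 to 9.19 CPM with OGN and 3.03 to 4.15 CPM with SFs, and its call was lost without mouse 4 (edgeR, adjusted p = 0.0512). With the epithelial covariate the calls of Tlr2 and Il1rap were lost (edgeR, adjusted p = 0.253 and 0.179). In that fit 3 of the 23 genes were higher and 0 were lower. Tlr4 and Myd88 did not pass, with log2 fold changes of 0.17 and 0.19.

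Of 29 NF-kB subunits and feedback inhibitors, 4 were higher and 5 were lower (31%, against 11.1% of all genes, median log2 fold change 0.05). The higher members were Tnip3, Ikbke, Zc3h12a and Nfkb1. With the epithelial covariate 3 genes of the list were higher and 1 was lower, and the calls of Zc3h12a and Nfkb1 were lost (edgeR, adjusted p = 0.0629 and 0.144). Tnip3, an inhibitor of the pathway, held 34.3, 32.1, 43 and 31.2 CPM with OGN and 15.6, 8.67, 11.4 and 11.5 CPM with SFs (log2 fold change 1.6 ± 0.15, edgeR adjusted p = 1.82e-07). The lower members included Map3k14 and Nfkb2 of the noncanonical arm, with log2 fold changes of -0.49 and -0.21, and the inhibitor Nfkbie at -0.45. The inhibitors Nfkbia and Tnfaip3, common readouts of the pathway, did not pass, with log2 fold changes of -0.08 ± 0.07 and 0.1 ± 0.11 (edgeR, adjusted p = 0.557 and 0.631).

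Interferon response and MHC class I genes were lower where they were called. Of 34 genes tested, 0 were higher and 7 were lower (20.6%, against 11.1% of all genes, median log2 fold change -0.13). Irf1, a transcription factor of the response, held 50.6, 54.7, 59.7 and 50.1 CPM with OGN and 79.8, 60.1, 89.4 and 85.6 CPM with SFs (log2 fold change -0.53 ± 0.1, edgeR adjusted p = 0.000865). Ddx58, which encodes the RNA sensor RIG-I, held 45.4 to 59.1 CPM with OGN and 68.5 to 75.4 CPM with SFs. Tap1 and Tap2, the peptide transporters of antigen presentation, had log2 fold changes of -0.48 and -0.43. Neither Irf1 nor Ddx58 nor Tap2 overlapped between the treatments. The call of Tap1 was lost without mouse 4, and with the epithelial covariate 0 of the 34 genes were called while the list's median was -0.28. Isg15 did not pass, with a log2 fold change of -0.34.

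Of 15 complement components and regulators, 6 were higher and 0 were lower (40%, against 11.1% of all genes, median log2 fold change 0.23). C3, the central component, held 5510, 5650, 4940 and 5330 CPM with OGN and 3610, 3510, 4050 and 3830 CPM with SFs (log2 fold change 0.52 ± 0.06, edgeR adjusted p = 1.76e-06). Its call was lost with all 16 fibroblast libraries in the fit (edgeR, adjusted p = 0.152). C1s1 and C1ra, proteases of the C1 complex, and Serping1, their inhibitor, had log2 fold changes of 0.41, 0.31 and 0.61. Clu, a secreted chaperone that also restrains complement, had 1.36 ± 0.09 (edgeR, adjusted p = 1.19e-09). Its mean level in the Epcam fraction of the OGN-treated cultures was 3690 CPM, against 148 to 285 CPM in the fibroblasts.

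**Figure D3:**
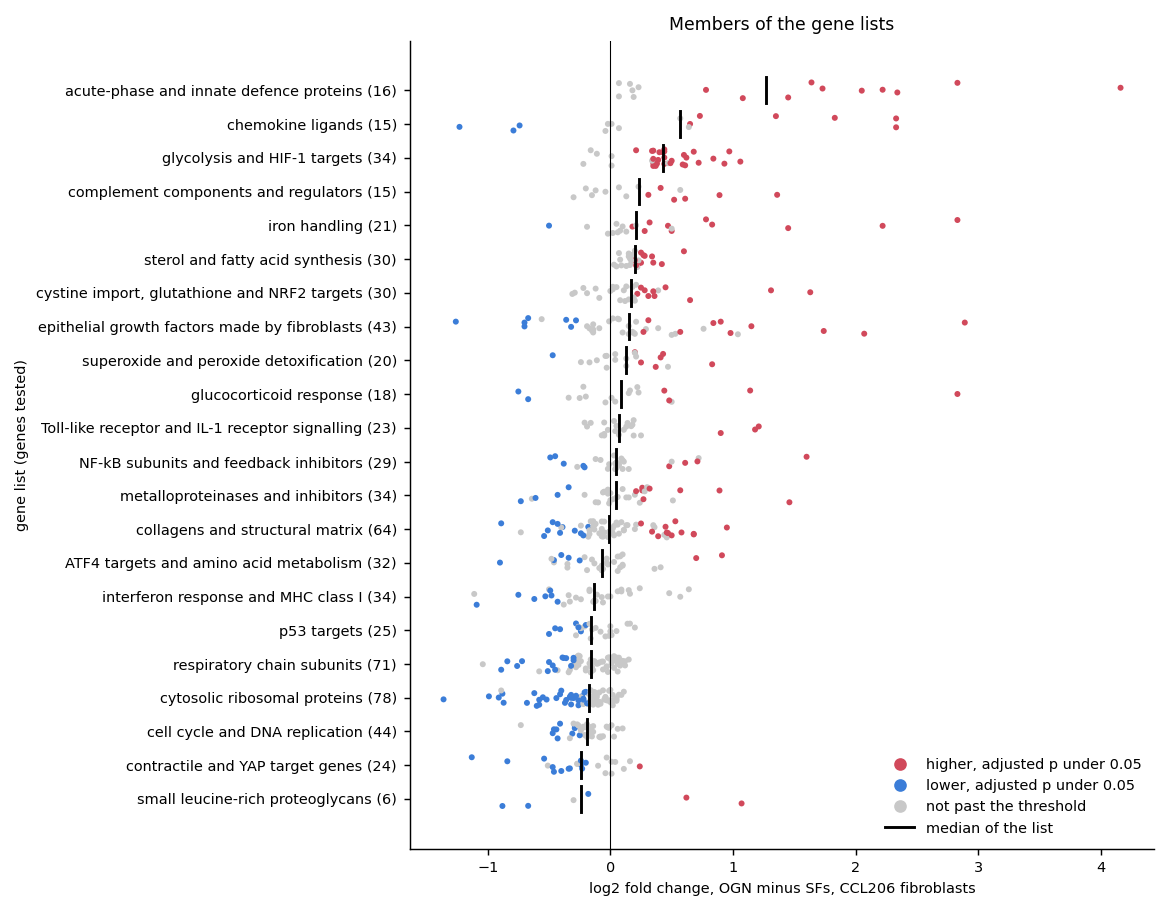
Log2 fold change of OGN minus SFs in CCL206 fibroblasts for the members of 22 gene lists, with the number of genes tested in parentheses. Red and blue points are genes called higher and lower, grey points did not pass and black bars are list medians. The medians run from 1.27 for acute-phase and innate defence proteins to -0.24 for contractile and YAP target genes and small leucine-rich proteoglycans.

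Growth factors that act on epithelial cells changed member by member. Of 43 growth factors and antagonists tested, 10 were higher and 7 were lower (39.5%, against 11.1% of all genes, median log2 fold change 0.15). Hgf, which encodes hepatocyte growth factor, held 283, 303, 276 and 318 CPM with OGN and 138, 138, 174 and 153 CPM with SFs (log2 fold change 0.98 ± 0.07, edgeR adjusted p = 1.14e-08). Fgf7, or keratinocyte growth factor, held 178, 164, 179 and 215 CPM with OGN and 92.5, 85.8, 125 and 112 CPM with SFs (log2 fold change 0.84 ± 0.08, edgeR adjusted p = 1.68e-07). Fgf10, which drives lung branching through the same receptor, held 97.5, 113, 93.7 and 121 CPM with OGN and 53.2, 44.9, 64.3 and 66.5 CPM with SFs (log2 fold change 0.9 ± 0.1, edgeR adjusted p = 1.81e-06). For all 3 genes the lowest OGN library was above the highest SFs library. Vehicle libraries held 112 to 131 CPM of Hgf, 77.1 to 85.4 CPM of Fgf7 and 41.1 to 51 CPM of Fgf10.

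Stc1, which encodes the glycoprotein stanniocalcin 1, held 32.9, 25.4, 10.5 and 17 CPM with OGN and 7.82, 5.84, 3.56 and 3.03 CPM with SFs (log2 fold change 2.07 ± 0.19, edgeR adjusted p = 1.91e-07). Tgfb1, which encodes the cytokine that drives matrix production, held 64.8, 52, 59.3 and 68.3 CPM with OGN and 43.1, 37.9, 42.8 and 41.4 CPM with SFs (log2 fold change 0.57 ± 0.09, edgeR adjusted p = 0.000204). The groups did not overlap in either of them. Wnt7b, an epithelial WNT ligand, held 3.81, 4.21, 7.92 and 2.99 CPM with OGN and 0.337 to 0.943 CPM with SFs (log2 fold change 2.89 ± 0.45, edgeR adjusted p = 0.000136). With vehicle Wnt7b held 3.13, 0.825, 2.78 and 1.47 CPM, which overlapped both treatments. The lowest of the 8 OGN and SFs libraries had 2 counts, the Epcam fraction held 103 CPM, and with the epithelial covariate the call was lost (edgeR, adjusted p = 0.323).

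The lower members were Dkk3, Hbegf, Inhba, Ptn, Csf1, Sfrp1 and Nrg1. With the epithelial covariate 2 genes of the list were lower and 11 were higher. Dkk3, a secreted protein of the Dickkopf family, held 70.4, 63.5, 61.7 and 65.3 CPM with OGN and 99.3, 100, 110 and 117 CPM with SFs (log2 fold change -0.7 ± 0.08, edgeR adjusted p = 3.1e-06). Ptn, which encodes the heparin-binding factor pleiotrophin, held 5.38 to 11.3 CPM with OGN and 15.3 to 22.8 CPM with SFs (log2 fold change -1.26 ± 0.21, edgeR adjusted p = 0.000254). Hbegf, a ligand of the EGF receptor, held 69, 72.9, 30.2 and 41.3 CPM with OGN and 128, 92.2, 67.4 and 57.9 CPM with SFs. It was lower with OGN in every mouse while the groups overlapped (log2 fold change -0.7 ± 0.11, edgeR adjusted p = 0.000119). Fgf2 and Wnt5a did not pass, with log2 fold changes of -0.09 ± 0.09 and -0.14 ± 0.09 (edgeR, adjusted p = 0.612 and 0.403).

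**Figure D4:**
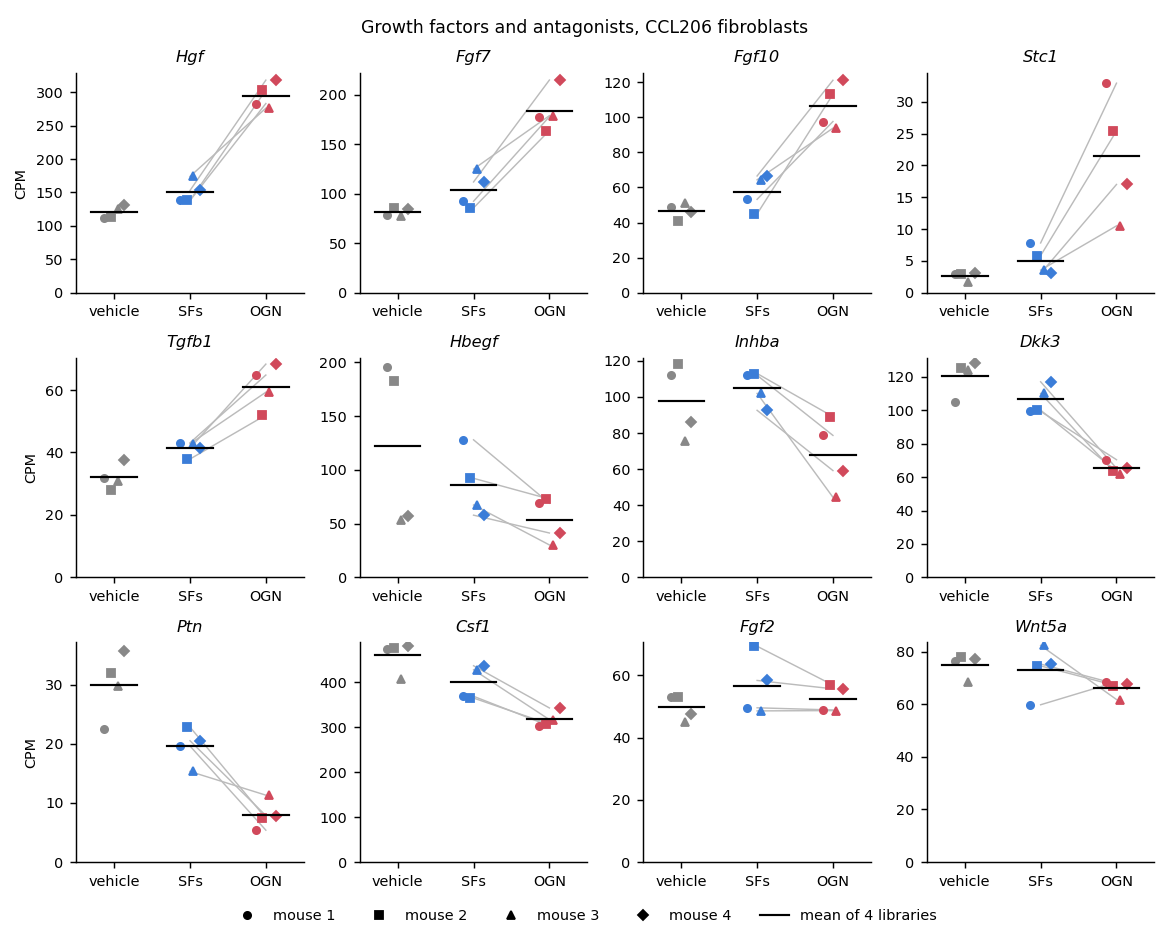
Level of 12 growth factors and antagonists in the fibroblast fraction, in CPM on linear axes from 0, for vehicle, SFs and OGN. Symbols are mice, grey lines join SFs and OGN of 1 mouse and black bars are means of 4 libraries. Hgf, Fgf7, Fgf10, Stc1 and Tgfb1 were called higher, Hbegf, Inhba, Dkk3, Ptn and Csf1 lower, and Fgf2 and Wnt5a were not called.

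The fibroblasts' own Ogn was lower with OGN. Its level was 19.5, 15, 17.4 and 22.7 CPM with OGN, 32.3, 33.6, 36.3 and 33.5 CPM with SFs and 39.9 to 50.7 CPM with vehicle (log2 fold change of OGN minus SFs -0.88 ± 0.13, edgeR adjusted p = 7.33e-05). The groups did not overlap, and with the epithelial covariate the adjusted p was 0.0574 at a log2 fold change of -0.83 (edgeR). Of the other small leucine-rich proteoglycans tested, Dcn and Lum were higher, Prelp and Bgn were lower and Podnl1 did not pass. With the epithelial covariate 2 genes of this list were higher and 0 were lower. The call of Prelp was also lost without mouse 4 and with all 16 fibroblast libraries (edgeR, adjusted p = 0.0561 and 0.187). Dcn, which encodes decorin, held 1390, 1520, 1370 and 1510 CPM with OGN and 690, 707, 705 and 674 CPM with SFs (log2 fold change 1.07 ± 0.06, edgeR adjusted p = 2.45e-11). Lum, which encodes lumican, held 143 to 179 CPM with OGN and 97.7 to 110 CPM with SFs (log2 fold change 0.62 ± 0.07, edgeR adjusted p = 4.88e-06). Both stood apart from SFs in all libraries, whereas Bgn, which encodes biglycan, held 1750 to 2070 CPM with OGN and overlapped 2030 to 2290 CPM with SFs (log2 fold change -0.18 ± 0.05, edgeR adjusted p = 0.0262).

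Of 64 collagens and other structural matrix genes, 12 were higher and 11 were lower (35.9%, against 11.1% of all genes). Their median log2 fold change was -0.01. Enzymes that modify collagen were called in both directions. Lox, which cross-links collagen and elastin, held 195, 220, 234 and 234 CPM with OGN and 106, 92.8, 140 and 124 CPM with SFs (log2 fold change 0.95 ± 0.08, edgeR adjusted p = 2.35e-08). Plod2, a lysyl hydroxylase, and P4ha2, a prolyl hydroxylase, each had a log2 fold change of 0.68 ± 0.07 (edgeR, adjusted p = 3.4e-07 and 5.22e-07). Spp1, which encodes osteopontin, held 8190 to 8940 CPM with OGN and 6090 to 6480 CPM with SFs. None of these 4 genes overlapped between the treatments. Loxl3, a lysyl oxidase, and Pcolce, an enhancer of procollagen processing, were lower, at -0.47 and -0.22. The lower members also included Col7a1, Col8a1, Col6a1 and Col6a2, at -0.89, -0.51, -0.29 and -0.39. The main fibrillar collagens and fibronectin did not pass, with log2 fold changes of -0.07 ± 0.05 for Col1a1, -0.18 ± 0.06 for Col3a1 and -0.06 ± 0.05 for Fn1 (edgeR, adjusted p = 0.439, 0.0583 and 0.531).

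Of 34 metalloproteinases, plasminogen system genes and inhibitors, 8 were higher and 4 were lower (35.3%, against 11.1% of all genes). Adamts7, a secreted protease that cleaves cartilage oligomeric matrix protein, held 187, 210, 220 and 220 CPM with OGN and 74.3, 69.8, 83.7 and 78.5 CPM with SFs (log2 fold change 1.46 ± 0.07, edgeR adjusted p = 7.99e-12). Its level in the fibroblasts was 432 to 844% of that in the Epcam fraction with OGN. Mmp3 held 162 to 182 CPM with OGN and 108 to 134 CPM with SFs, and Mmp13, a collagenase, 22.7 to 40.1 CPM with OGN and 14.3 to 19.8 CPM with SFs. Timp3, a matrix-bound inhibitor of these enzymes, was lower, at 282, 298, 368 and 395 CPM with OGN and 486, 513, 592 and 639 CPM with SFs (log2 fold change -0.73 ± 0.06, edgeR adjusted p = 2.12e-08). Timp1, Timp2 and Mmp2 did not pass, with log2 fold changes of 0.02, -0.02 and -0.12.

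Contractile genes and targets of the mechanosensitive factor YAP were lower with 1 exception where called. Of 24 tested, 1 was higher and 12 were lower (54.2%, against 11.1% of all genes, median log2 fold change -0.24). Ankrd1, a target of YAP, held 25.3, 24.7, 27.6 and 31.3 CPM with OGN and 59.5, 58.8, 59.2 and 62.1 CPM with SFs (log2 fold change -1.13 ± 0.1, edgeR adjusted p = 7.68e-08). The SFs libraries were close to vehicle, at 60.5 to 72 CPM. Tpm1, which encodes a tropomyosin, held 412 to 480 CPM with OGN and 603 to 642 CPM with SFs (log2 fold change -0.47 ± 0.06, edgeR adjusted p = 5.79e-06). Cnn2 and Mylk had -0.4 and -0.46, and the higher member was Tpm4, at 0.24. With the epithelial covariate 0 of the 24 genes were higher and 5 were lower. Mylk was not called there, and its log2 fold change was -0.07. Acta2, the smooth muscle actin of myofibroblasts, held 9.64, 11.9, 23.1 and 18.1 CPM with OGN and 20.5, 27.7, 20.5 and 20 CPM with SFs, which overlapped (log2 fold change -0.51 ± 0.19, edgeR adjusted p = 0.0972). Ccn2, another YAP target, had a log2 fold change of 0.01 ± 0.33.

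Most genes of glycolysis and targets of the hypoxia-inducible factor HIF-1 were higher. Of 34 genes tested, 27 were higher and 0 were lower (79.4%, against 11.1% of all genes), with a median log2 fold change of 0.43 that ranged from 0.36 to 0.5 over the 4 mice. Slc2a1, the glucose transporter GLUT1, held 430, 451, 453 and 452 CPM with OGN and 247, 227, 230 and 217 CPM with SFs (log2 fold change 0.97 ± 0.06, edgeR adjusted p = 1.21e-09). Ldha, a subunit of lactate dehydrogenase, held 1560, 1500, 1710 and 1570 CPM with OGN and 1050, 980, 1020 and 930 CPM with SFs (log2 fold change 0.68 ± 0.05, edgeR adjusted p = 2.72e-08). Pgk1, which forms ATP in glycolysis, held 1450 to 1540 CPM with OGN and 973 to 1040 CPM with SFs (log2 fold change 0.59 ± 0.05, edgeR adjusted p = 1.34e-07). Each of them was below the SFs level in all 4 vehicle libraries. Of HIF-1 targets outside glycolysis, the mitophagy receptor Bnip3 had a log2 fold change of 0.93 ± 0.07 and the oxygen sensor Egln1 0.72 ± 0.08 (edgeR, adjusted p = 1.5e-08 and 1.22e-06). Hif1a itself held 433, 487, 385 and 443 CPM with OGN and 268, 307, 345 and 334 CPM with SFs (log2 fold change 0.49 ± 0.07, edgeR adjusted p = 0.000121). Vegfa and Adm, also HIF-1 targets, did not pass, with log2 fold changes of 0.1 and -0.11. With the epithelial covariate 23 of the 34 genes were higher and the median was 0.52.

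Of 71 respiratory chain subunits, 0 were higher and 14 were lower (19.7%, against 11.1% of all genes, median log2 fold change -0.16). They included the mitochondrial genes mt-Co2, mt-Atp6 and mt-Co3, at -0.76, -0.89 and -0.84, and nuclear genes for small subunits such as Cox7c and Ndufa4, at -0.51 and -0.39. For mt-Atp6 and mt-Co3 the groups overlapped, and mouse 1 was not lower with OGN (46.2 against 46.1 CPM and 53.8 against 52.7 CPM). Mean levels of mt-Co2, mt-Atp6 and mt-Co3 with vehicle were 40.4, 32.1 and 39.7 CPM. They were 37.9, 33.3 and 37.3 CPM with OGN and 63.4, 59.9 and 65.4 CPM with SFs, so the vehicle means were nearer to OGN. The calls of mt-Co2, mt-Atp6 and mt-Co3 were lost with the epithelial covariate (edgeR, adjusted p = 0.209, 0.754 and 0.493) and with all 16 fibroblast libraries (0.353, 0.332 and 0.311). With the covariate 3 of the 71 subunits were higher and 1 was lower. Of 78 cytosolic ribosomal proteins, a list added after the values were seen, 0 were higher and 33 were lower. This was 42.3% called, against 11.1% of all genes, with a median log2 fold change of -0.17. Rps21, of the small ribosomal subunit, held 111, 78.9, 56.2 and 84 CPM with OGN and 151, 160, 150 and 177 CPM with SFs (log2 fold change -0.99 ± 0.1, edgeR adjusted p = 8.99e-07). Rpl39, of the large subunit, held 102, 76.2, 66.2 and 91.5 CPM with OGN and 146, 153, 160 and 150 CPM with SFs (log2 fold change -0.88 ± 0.09, edgeR adjusted p = 1.04e-06). In both genes the vehicle library of mouse 1, at 72.6 and 75.9 CPM, was as low as the OGN libraries.

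Both lists hold many short transcripts, and short transcripts were more often lower than higher with OGN. Among the 1152 genes with the shortest transcripts, of 67 to 1339 bases, 39 were higher and 116 were lower (median log2 fold change -0.11), while the medians of the other 9 length classes were between 0 and 0.02. The relation of a library's deviation with transcript length had a Spearman rho of 0.263 in the OGN library of mouse 2 and of -0.17 in the SFs library of mouse 1, and of -0.127 to 0.0502 in the other 6 (description across 11519 genes, which are not replicates). With this trend taken out of each library, 4 respiratory chain subunits were lower (median -0.03) and 24 ribosomal proteins were lower (median -0.1), whereas 27 of 34 glycolysis and HIF-1 genes were again higher. With all 16 fibroblast libraries in the fit, Rps21 and Rpl39 were not called (edgeR, adjusted p = 0.0743 and 0.0919).

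Genes of cystine import, glutathione and the NRF2 response were higher where called, with 10 higher and 0 lower of 30 tested. These were 33.3% of the list, against 11.1% of all genes, and the list's median log2 fold change was 0.17. With the epithelial covariate 3 were higher and 2 were lower (median 0.08). Slc7a11, the cystine transporter xCT, held 93, 92.5, 88.6 and 70.8 CPM with OGN and 36.9, 33.9, 36.9 and 31.7 CPM with SFs (log2 fold change 1.31 ± 0.09, edgeR adjusted p = 2.5e-09). Its partner subunit Slc3a2 did not pass (log2 fold change 0.2 ± 0.07, edgeR adjusted p = 0.072). Gclc, the rate-limiting enzyme of glutathione synthesis, held 349 to 526 CPM with OGN and 214 to 328 CPM with SFs (log2 fold change 0.65 ± 0.07, edgeR adjusted p = 2.89e-06), and with the epithelial covariate its log2 fold change was 0.31 (edgeR, adjusted p = 0.052). Nqo1 and Txnrd1, widely used NRF2 targets, did not pass, with log2 fold changes of -0.31 and -0.09. Of 20 genes for superoxide and peroxide removal, 6 were higher and 1 was lower (35%, against 11.1% of all genes). The median log2 fold change was 0.13, and with the epithelial covariate 1 gene was higher and 1 was lower (median -0.07). Sod2, the mitochondrial superoxide dismutase, held 223, 218, 200 and 222 CPM with OGN and 120, 130, 119 and 119 CPM with SFs, without overlap (log2 fold change 0.83 ± 0.07, edgeR adjusted p = 2.12e-08).

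Of 21 iron-handling genes, 10 were higher and 1 was lower (52.4%, against 11.1% of all genes). Of these, Lcn2, Cp, Steap4 and Ltf are described above. The transferrin receptor Tfrc was higher at a log2 fold change of 0.47 ± 0.08 and the divalent metal transporter Slc11a2 at 0.5 ± 0.07 (edgeR, adjusted p = 0.000302 and 2.14e-05). Scara5, a ferritin receptor outside the list that was named after its value was seen, was lower at -1.31 ± 0.2 (edgeR, adjusted p = 0.000106). The exporter Slc40a1, which encodes ferroportin, was the lower member, at 17.5 to 28.7 CPM with OGN and 26.4 to 44.2 CPM with SFs (log2 fold change -0.5 ± 0.11, edgeR adjusted p = 0.00523). The groups overlapped. The ferritin genes Fth1 and Ftl1 did not pass, with log2 fold changes of 0.02 and 0.05.

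Cell cycle and p53 target genes were lower where called. Of 44 cell cycle and replication genes, 0 were higher and 9 were lower (20.5%, against 11.1% of all genes, median log2 fold change -0.19). Ccnd1, which encodes cyclin D1, held 804, 715, 584 and 609 CPM with OGN and 968, 944, 921 and 898 CPM with SFs (log2 fold change -0.46 ± 0.06, edgeR adjusted p = 2.69e-05), and with the epithelial covariate the log2 fold change was -0.23 and the call was lost (adjusted p = 0.128). Top2a and Mki67, markers of dividing cells, had log2 fold changes of -0.43 and -0.31, and stood at 540 and 645 CPM in the Epcam fraction with OGN. The call of Mki67 was lost without mouse 4 and without mouse in the model. Of 25 p53 targets, 0 were higher and 7 were lower (28%, against 11.1% of all genes, median -0.16). Cdkn1a, which encodes the cell cycle inhibitor p21, did not pass, with a log2 fold change of -0.16 ± 0.07 (edgeR, adjusted p = 0.164), and was called lower with the epithelial covariate (-0.39, edgeR adjusted p = 0.0249).

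Of 30 genes of sterol and fatty acid synthesis, 11 were higher and 0 were lower (36.7%, against 11.1% of all genes). The list had a median log2 fold change of 0.2. The changes were small, with 0.42 ± 0.06 for the desaturase Scd1 (edgeR, adjusted p = 2.87e-05, and 0.152 without mouse in the model) and 0.21 and 0.34 for Scd2 and Cyp51, whose calls were lost without mouse 2 and without mouse 4. Of 32 ATF4 targets and amino acid genes, 2 were higher and 5 were lower (21.9%, against 11.1% of all genes). Mthfd1l, a mitochondrial enzyme of folate metabolism, was higher at 0.7 ± 0.07, and Mthfd2, which acts beside it, was lower at -0.46 ± 0.1 (edgeR, adjusted p = 1.24e-06 and 0.00504). The call of Mthfd2 was lost without mouse 4 and without mouse in the model (edgeR, adjusted p = 0.0738 and 0.077). Of 18 glucocorticoid response genes, 4 were higher and 2 were lower (33.3%, against 11.1% of all genes). Hsd11b1, which regenerates active glucocorticoid, held 24.2, 33.9, 31.9 and 25.4 CPM with OGN and 12.6, 13, 14.8 and 12 CPM with SFs (log2 fold change 1.14 ± 0.14, edgeR adjusted p = 5.95e-06). Fkbp5, a common target of the glucocorticoid receptor, was lower at -0.67 ± 0.09 (edgeR, adjusted p = 2.05e-05), and with the epithelial covariate it was -0.37 and not called (adjusted p = 0.16). Tsc22d3, another target, did not pass at -0.04.

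Further genes with the smallest p lie outside these lists. Ptges, which encodes prostaglandin E synthase, held 157, 175, 145 and 150 CPM with OGN and 66.7, 50.9, 56.1 and 53 CPM with SFs (log2 fold change 1.48 ± 0.08, edgeR adjusted p = 1.69e-10). Ak5, an adenylate kinase, held 18.2 to 23.6 CPM with OGN and 39.4 to 49.3 CPM with SFs, a log2 fold change of -1.13 ± 0.11 (edgeR, adjusted p = 3.99e-07). Mgp, which encodes matrix Gla protein, an inhibitor of calcification, held 22.9 to 31 CPM with OGN and 48.5 to 53.4 CPM with SFs (log2 fold change -0.92 ± 0.1, edgeR adjusted p = 2.23e-06). The groups were apart in all 3 genes. Errfi1, a feedback inhibitor of the EGF receptor, held 149, 155, 186 and 212 CPM with OGN and 328, 208, 337 and 333 CPM with SFs, and the SFs library of mouse 2 was within the OGN range (log2 fold change -0.75 ± 0.08, edgeR adjusted p = 2.62e-06).

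The same treatments were also compared in the Epcam fraction of the same cultures, and the difference of the log2 fold changes between the fractions was tested over 16 libraries. Of 11800 genes tested, 196 differed (1.66%), 163 with a change higher in fibroblasts (1.38%) and 33 with a change lower in fibroblasts (0.28%). Leaving out 1 mouse lowered this count to between 28, without mouse 3, and 115, without mouse 1, with 104 without mouse 2 and 91 without mouse 4, and without mouse in the model 33 genes differed. Hp had a log2 fold change of 2.05 in fibroblasts and of 0.46 in the Epcam fraction, where it did not pass (difference 1.61, edgeR adjusted p = 6.19e-05). Its mean level was higher in the Epcam fraction, at 1370 against 345 CPM with OGN and 976 against 84.9 CPM with SFs. Ptges and Sema3c, a secreted semaphorin, differed by 1.01 and 0.97 (edgeR, adjusted p = 0.00157 for both). The change of Mal, a membrane protein of vesicle sorting, was 1.1 in fibroblasts and 0.02 in the Epcam fraction, whose level was 204 CPM against 27.4 to 56.6 CPM in the fibroblasts. Its difference of 1.1 passed with mouse in the model (edgeR, adjusted p = 0.00157) but not without it (0.111). Clu, Cxcl15, Ltf and Wnt7b, with higher levels in the Epcam fraction than in fibroblasts, also passed, with differences of 1.08, 0.71, 1.67 and 2.71. So did Lox and Stc1, with lower levels there, at 0.71 and 1.73. The part of epithelial RNA in these differences was not tested.

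Saa3 and Lcn2 were called in both fractions. Saa3 had a log2 fold change of 3.15 in the Epcam fraction and Lcn2 of 1.71, and the changes in fibroblasts were higher by 1.01 and 1.14 (edgeR, adjusted p = 0.0156 and 0.00277). Slpi and Cxcl5 were called in both as well, at 1.29 and 1.39 in the Epcam fraction, and their differences between fractions, of 0.44 and 0.46, did not pass (edgeR, adjusted p = 0.0608 and 0.0825). Hgf, Fgf7 and Fgf10 had log2 fold changes of 0.59, 0.4 and 0.35 in the Epcam fraction that did not pass, and the differences of 0.39, 0.42 and 0.56 did not pass either (edgeR, adjusted p = 0.238, 0.263 and 0.25). Among genes with a change lower in fibroblasts, Rpl37a, Rpl36 and Rpl39 had log2 fold changes of 0.25, 0.15 and 0.04 in the Epcam fraction. Their differences were -0.78, -0.75 and -0.91 (edgeR, adjusted p = 0.0027, 0.00804 and 0.00521) and did not pass with all 32 libraries in the fit, and those of Rpl36 and Rpl39 did not pass without mouse in the model either. Ly6c1, a surface antigen, held 28.7 to 35.6 CPM with OGN and 45.1 to 50.2 CPM with SFs in fibroblasts, and its difference was -0.94 (edgeR, adjusted p = 0.00668), which did not pass without mouse 1 or without mouse 3 (adjusted p = 0.0527 and 0.0591).

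**Figure D5:**
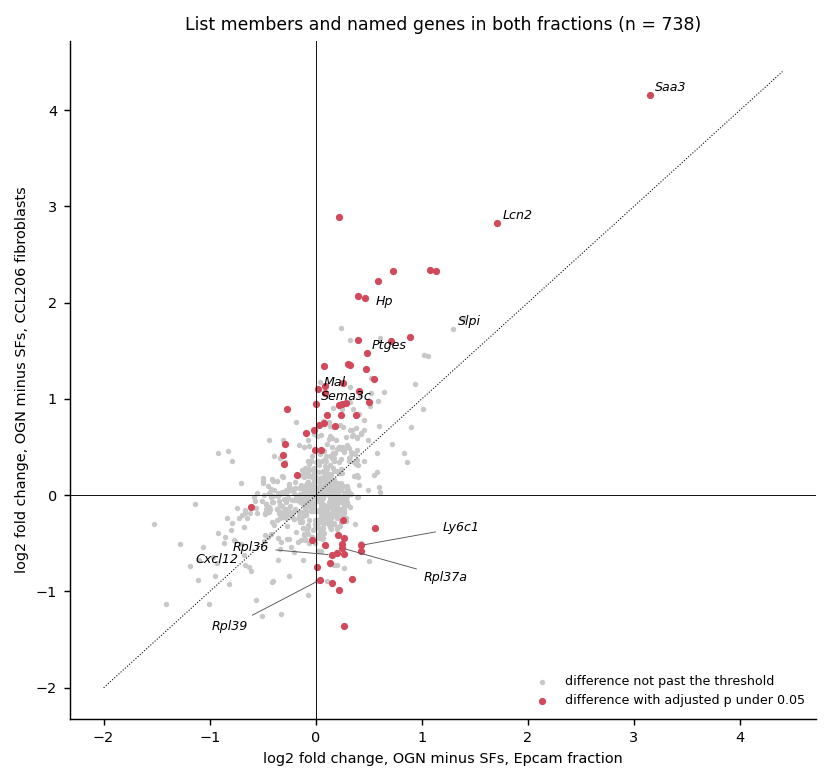
Log2 fold change of OGN minus SFs in CCL206 fibroblasts (vertical) against that in the Epcam fraction (horizontal) for 738 list members and named genes. Red points are the 64 genes whose difference between fractions passed an adjusted p of 0.05, and the dotted line marks equal changes. Saa3 and Lcn2 are high on both axes, whereas Hp, at 2.05 against 0.46, lies near the vertical axis.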

How the data were processed

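RNA from the fibroblast fraction of organoid co-cultures was sequenced. The authors deposited raw counts per gene, without normalization, for 11818 genes in 32 libraries. Reads were trimmed with Trimmomatic 0.30 per the labels. The labels give GRCm39 and the study's methods GRCm38 patch 6, and the aligner, the counter and the annotation are not given in the sources used here. Promoters were read from a RefSeq table of GRCm38.p6, independent of the counts.

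The 8 libraries with OGN or SFs were fitted in R 4.3.3 with edgeR 4.0.16 (quasi-likelihood F test, TMM scaling, filterByExpr, mouse and treatment as terms, Benjamini-Hochberg adjustment, threshold 0.05), which kept 11648 genes. Every adjusted p comes from this fit unless another is named, and the standard error is the log2 fold change divided by the root of F. The difference between fractions was tested as an interaction over 16 libraries. Marker sums were compared by exact permutation tests in CPM of the library total, without the pairing by mouse. The depth was 4560414 to 16103497 counts per library. The pairing comes from the labels, which number the mouse. Deviations of same-numbered libraries correlated at 0.0933, 0.161, 0.166 and 0.29, and those of differently numbered libraries at -0.217 to 0.148, so the ranges overlapped. Replicates differed by more than sampling noise, with a chi-square per degree of freedom of at least 2.98. The code was tested on simulated data.

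Named were the 12 genes with the smallest p in each direction that moved the same way in 4 mice, up to 4 members of each list by p, genes the study names, and, for the interaction, the 4 genes leading by p each way. Other list members were named after their values were seen. The members and lists were chosen with earlier results of these data known. Alternatives were no mouse term, DESeq2 1.42.0, other scaling and filters, more libraries in the fit, stricter thresholds, thinned counts, a correction for transcript length (98.9% of genes matched) and leaving out each mouse. An epithelial covariate, a count without genes richer in the Epcam fraction and the list of ribosomal proteins were added after the data were seen. Some genes that met the rule for naming are not reported here.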

Additional observations from a re-analysis of the deposited data

Results flagged for a closer look

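Of 204 groups of 4 libraries examined for a library far from the others, 9 had one, and chance flags about 1 in 20 groups. Among OGN-treated fibroblasts, mouse 1 was lowest for Slc2a1 at 430 CPM and for C1s1 at 850 CPM and highest for mt-Co3 at 53.8 CPM. Mouse 4 was highest for Mthfd1l at 178 CPM and lowest for Cyp51 at 54.7 CPM. Among SFs-treated fibroblasts, mouse 2 was lowest for Errfi1 at 208 CPM and for Tpm1 at 603 CPM and highest for Sod2 at 130 CPM, and mouse 3 was highest for Mmp3 at 134 CPM.

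The log2 fold change of OGN minus SFs differed between fibroblasts and the Epcam fraction in 196 genes by edgeR's interaction test. Among the 4 genes with the smallest p in each direction, it was higher in fibroblasts by 1.61 for Hp, 1.1 for Mal, 1.01 for Ptges and 0.97 for Sema3c. It was lower in fibroblasts for Rpl37a, Rpl39, Ly6c1 and Rpl36, with differences of -0.78, -0.91, -0.94 and -0.75.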

How the results depend on the processing

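The number of genes called in fibroblasts was 1292 (713 higher, 579 lower). It was 325 (222 and 103) with all 16 fibroblast libraries, 393 (255 and 138) against a 1.2-fold threshold and 691 (416 and 275) at an adjusted p under 0.01. With the epithelial covariate, chosen after seeing the data, it was 583 (389 and 194). DESeq2 called 865, of which 364 were lower. The calls without the mouse term, with DESeq2 and with 16 libraries were all among the 1292. Leaving out 1 mouse gave 644 to 1346 genes, 373 to 732 higher and 271 to 614 lower, the lowest without mouse 4. The share of calls that were higher was 55.2%, and 68.3% with 16 libraries, 64.9% against 1.2-fold and 66.7% with the covariate. Other scaling, filters, thinning and the length correction gave 1127 to 1293. The cause of these shifts was not tested. For the difference between fractions, 196 genes (163 higher in fibroblasts, 33 lower) became 93 (88 and 5) with all 32 libraries, and DESeq2 gave 245 higher. Leaving out 1 mouse gave 28 to 115, with 26 to 104 higher and 2 to 17 lower.

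Without the replicate block, that is without the pairing by mouse, 775 genes were called in fibroblasts (445 higher, 330 lower) and 33 differed between fractions (28 higher, 5 lower). Of 102 named genes, 96 kept their side of the threshold without the block, 71 with the covariate, 67 with 16 libraries and 90 without mouse 4. No named gene changed direction under any alternative. Thinning all libraries to 4560414 counts changed no call among the named genes. Low counts limit genes such as Wnt7b, with as few as 2 counts in a library.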

Other observations

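Levels of a few genes differed between mice in the vehicle cultures, a pattern chosen after its values were seen. In vehicle-treated fibroblasts Hbegf, a ligand of the EGF receptor, stood at 196 and 183 CPM in mice 1 and 2 and at 53.2 and 57.2 CPM in mice 3 and 4. Errfi1, a feedback inhibitor of that receptor, stood at 524 and 500 CPM in mice 1 and 2 and at 288 and 311 CPM in mice 3 and 4. Cxcl1 stood at 101 and 122 CPM in mice 1 and 2 and at 47.9 and 59 CPM in mice 3 and 4. With OGN, Hbegf and Cxcl1 were again higher in mice 1 and 2 (69 and 72.9 CPM against 30.2 and 41.3 CPM, and 268 and 269 CPM against 73.4 and 113 CPM), whereas Errfi1 was 149 and 155 CPM against 186 and 212 CPM. The labels give no difference between these mice, and no test was made.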
